A study of Mus musculus with 16 samples.

Results

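The insulin-like growth factor (IGF) family members described here are the ligands Igf1 and Igf2, the receptors Igf1r and Igf2r, and the binding proteins Igfbp2 to Igfbp7. They were chosen as every probe whose gene name in the scanner files is one of these 10 symbols, which gave 16 of the 55681 distinct probes and 10 of the 34836 gene names on the array. All 10 genes and 16 probes passed the filter on low signal, as did 20317 genes and 28197 probes overall. RNA came from cultured muscle stem cell progeny (myoblasts) of male C57Bl/6J mice aged 11 to 13 weeks, with no transgene or drug, and each of 16 one-color Agilent arrays carried 1 RNA sample, 4 arrays per group. Dispersed myoblasts grew away from the muscle fiber for 48 hr or 72 hr, with 1 mouse per preparation. Myofiber-associated myoblasts stayed on explanted fibers for 48 hr or 72 hr and were then stripped off with trypsin, with 2 mice per preparation. One myofiber-associated 48-hr array, replicate 10, carried a pool of 2 preparations and is called the pooled array. Values of single arrays are log2 signal in the order of the replicate numbers, so that the pooled array comes last in its group. The comparisons ask how expression changed from 48 to 72 hr in each culture, and whether that change and the levels differed between the cultures.

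IGF1 and IGF2 are secreted peptides that act through the IGF1 receptor, a tyrosine kinase. The activated receptor recruits insulin receptor substrates and signals through PI3K and AKT and through RAS and ERK, and in muscle it is known to promote both proliferation and differentiation of myoblasts. IGF2R takes IGF2 to the lysosome, and the binding proteins hold the ligands outside the cell, where they can limit them or present them to the receptor.

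The slide cannot be told apart from the culture, because each culture was hybridized on 1 slide. Nor can the slide column be told apart from time, because the 72-hr arrays lay in other columns than the 48-hr arrays on both slides. Between 55.2% and 64.3% of the spots for genes were well above background on an array, and 0 were saturated. The median SD of a gene was 0.09 and 0.10 in the dispersed groups at 48 and 72 hr but 0.22 and 0.18 in the myofiber-associated groups. The 9 myoblast markers were well above background on all arrays. Markers of other cells were present as well: the 10 genes of adult muscle fibers had a log2 summed signal of 12.86 to 14.98 on dispersed and of 17.69 to 20.68 on myofiber-associated arrays, although the labels state that fiber RNA was absent. The 20 endothelial genes ranged from 17.66 to 18.11 in dispersed myoblasts at 48 hr down to 13.97 to 14.37 in myofiber-associated myoblasts at 72 hr. In RNA from a whole culture, fewer cells of a type and less RNA per cell cannot be told apart.

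Each probe is 60 bases long, and its position is given in build mm9 by the scanner files; the exon it lies in was not annotated here. The first 30 bases are printed 5′ to 3′ for 3 of the genes on which the results turn. The Igf1 probes are shown because they did not move together. All lie on the plus strand, probe 1 at chr10:87378456-87378515, probe 2 at chr10:87393581-87393640, probe 3 at chr10:87393561-87393620, probe 4 at chr10:87395924-87395983 and probe 5 at chr10:87399581-87399640. Capitals mark the bases that probes 2 and 3 have in common within the printed stretch; in full they share 40 bases.
Igf1 probe 1: aaccattaaaaacatgccaccaagaccttc
Igf1 probe 3: cctaccaaataacaataataAGTCCAATAA
Igf1 probe 2: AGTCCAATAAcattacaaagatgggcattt
Igf1 probe 4: agaaatgtaaatggaataagaggtcagctg
Igf1 probe 5: ctcctgattgtatttgaagtggttattcaa

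Igf1 probe 1 starts 15105 to 21125 bases before the others. Its transcript accession is not in the RefSeq gene table used here, whereas the accession of the other 4 probes is listed there under Igf1. The Igfbp2 probes are shown because Igfbp2 changed the most of the 10 genes, and Igfbp4 because it changed differently in the cultures. Igfbp2 lies on the plus strand at chr1:72898813-72898872 (probe 1) and chr1:72898677-72898736 (probe 2), with no shared base, and Igfbp4 on the plus strand at chr11:98913334-98913393.
Igfbp2 probe 1: aggagttcccagttttgacacatgtattta
Igfbp2 probe 2: catctcttctacaacgagcagcaggagact
Igfbp4 probe 1: gagaagagaaacctcattcttggagtgaga

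From 48 to 72 hr, Igfbp2 rose in both cultures, Igf1r rose and Igfbp3 fell in dispersed myoblasts, and the other members, each by its brightest probe, did not pass the threshold, an adjusted p of 0.01 over all genes in limma. In dispersed myoblasts 2 of the 10 genes were called higher, where 7.38% of all genes were, and 1 was called lower, where 6.32% of all genes were. The median log2 change of the 10 genes was 0.01, beside 0.02 for all genes. In myofiber-associated myoblasts 1 was called higher, where 3.74% of all genes were, and none lower by limma, where 1.74% were. At an adjusted p of 0.05 in limma, Igfbp2, Igf1r, Igfbp4 and Igfbp6 passed as higher and Igfbp7 as lower, beside 4585 of all 20317 genes in either direction. The median log2 change of the 10 genes was 0.34, beside 0.06 for all genes. The change differed between the cultures for 1 gene, Igfbp4, whose change was below 0 in dispersed and above 0 in myofiber-associated myoblasts; 2.36% of all genes were called in that direction and 1.09% in the other.

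**Figure D1:**
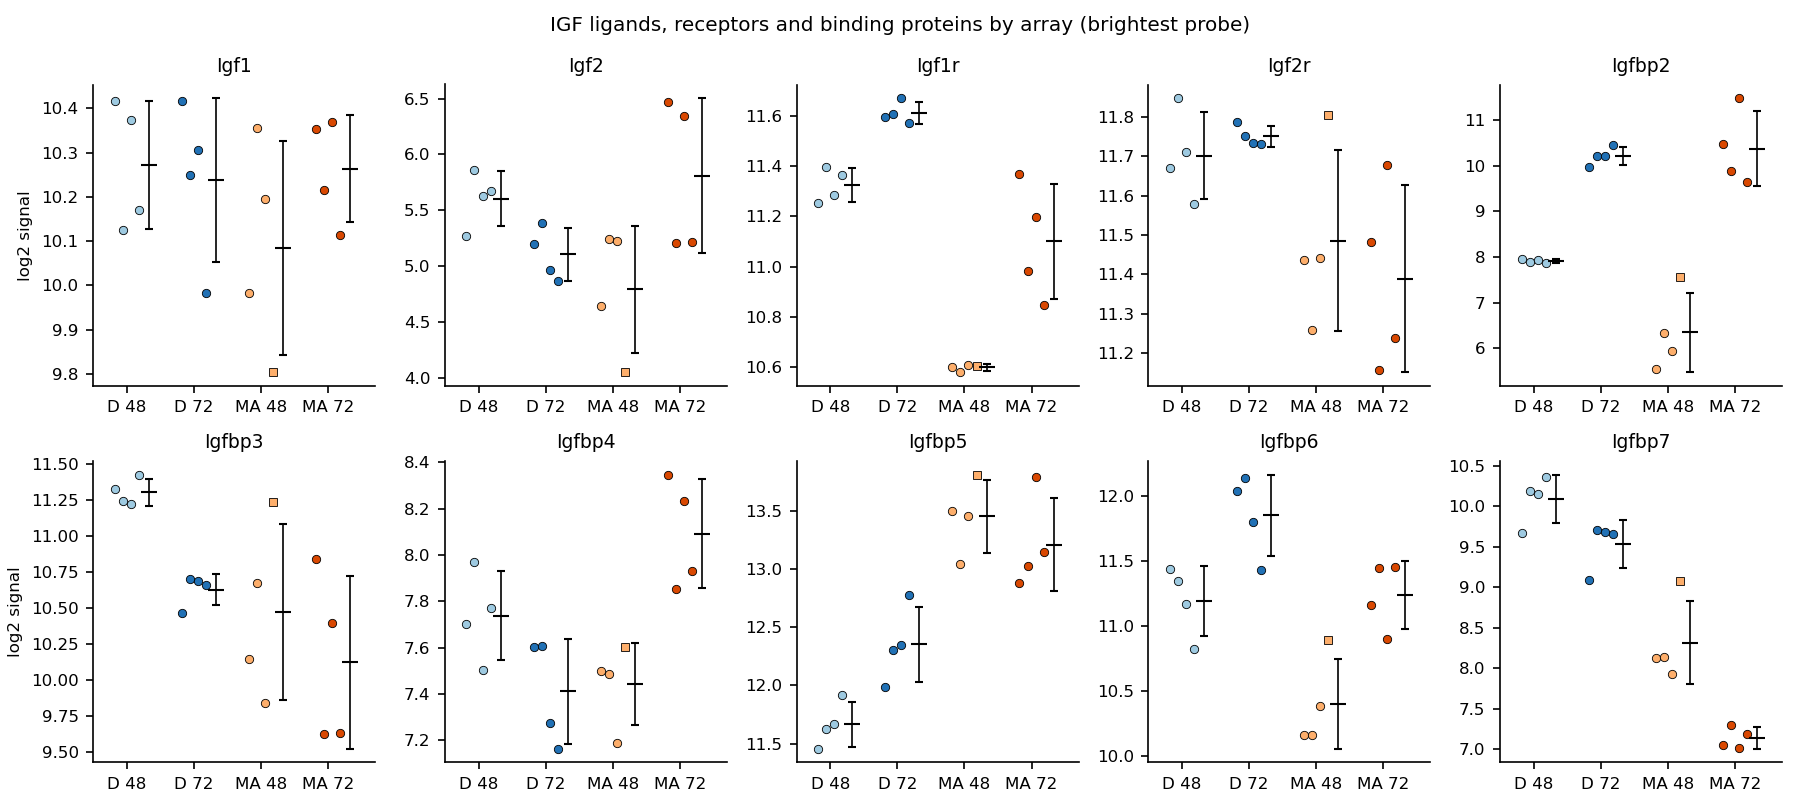
Log2 signal of the brightest probe of each of the 10 genes on the 16 arrays, for dispersed (D) and myofiber-associated (MA) myoblasts at 48 and 72 hr. Points are arrays, the square is the pooled array, dashes with bars are the mean and SD of 4 arrays, and each vertical axis has its own range. Igfbp2 is higher at 72 hr than at 48 hr on every array of both cultures, and Igfbp7 is lower on every myofiber-associated array than on every dispersed array.

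Among the ligands, Igf1 gave different values with different probes. Probe 1, the brightest and therefore the one that stood for the gene, read 10.42, 10.12, 10.37 and 10.17 at 48 hr and 10.42, 10.25, 10.31 and 9.98 at 72 hr in dispersed myoblasts. In myofiber-associated myoblasts it read 9.98, 10.36, 10.19 and 9.80 at 48 hr and 10.35, 10.22, 10.37 and 10.11 at 72 hr. The time points overlapped in both cultures, with log2 changes of -0.03 (SE 0.11, adjusted p = 0.854) and 0.18 (SE 0.13, adjusted p = 0.34).

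Igf1 probe 2 read 8.84, 8.78, 8.67 and 8.78 at 48 hr and 8.15, 8.07, 7.97 and 7.73 at 72 hr in dispersed myoblasts. All 72-hr arrays were below all 48-hr arrays, and the probe fell by 0.78 on the log2 scale (SE 0.09, adjusted p = 0.000761 over all probes). Probe 3, which overlaps it, fell by 0.65 (SE 0.09, adjusted p = 0.00205). Probe 5 fell from 5.80, 5.98, 6.07 and 6.07 to 5.22, 4.78, 4.98 and 4.57, a log2 change of -1.09 (SE 0.14, adjusted p = 0.00103), again without overlap. Probe 4 overlapped between the time points and changed by -0.18 (SE 0.10, adjusted p = 0.239). Of the 16 probes of all members in dispersed myoblasts, 3 were called higher and 5 lower, where 6.87% and 5.58% of all probes were, and 3 of those 5 were Igf1 probes 2, 3 and 5. With the mean of all its probes in place of the brightest, Igf1 was called lower in dispersed myoblasts (-0.55, adjusted p = 0.00232) and moved to -1.11 (adjusted p = 0.0272) in myofiber-associated myoblasts.

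In myofiber-associated myoblasts no Igf1 probe passed 0.01 in limma, while probes 2, 3 and 5 had an unadjusted p under 0.05 and were lower at 72 hr. Of the 16 probes 2 were called higher, both of Igfbp2, where 3.73% of all probes were, and none lower by limma, where 1.7% were. Igf1 probe 5 read 6.16, 5.06, 5.58 and 4.48 at 48 hr and 2.49, 3.03, 4.18 and 3.06 at 72 hr. The time points did not overlap, and the fitted change was -2.13 (SE 0.43, adjusted p = 0.014). The pooled array was the lowest of the 48-hr arrays, and without it the fitted change was -2.41 (SE 0.41, adjusted p = 0.00691). Because the probe was well above background on 1 of the 4 72-hr arrays, the size of both changes rests on values near background and is uncertain.

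Igf1 probe 2 read 8.83, 7.91, 8.09 and 7.17 at 48 hr and 6.18, 7.26, 5.04 and 7.21 at 72 hr in myofiber-associated myoblasts. Replicates 1 and 3 were low at 72 hr, the pooled array overlapped the 72-hr arrays, and the change was -1.58 (SE 0.53, adjusted p = 0.0637). Probe 3 moved by -1.53 (SE 0.55, adjusted p = 0.0756) and probe 4 by -0.51 (SE 0.23, adjusted p = 0.139). The summed signal of the adult fiber genes was also lower on 72-hr replicates 1 and 3, at 18.18 and 17.69, than on replicates 2 and 4, at 19.60 and 19.996; its part in the result was not tested.

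**Figure D2:**
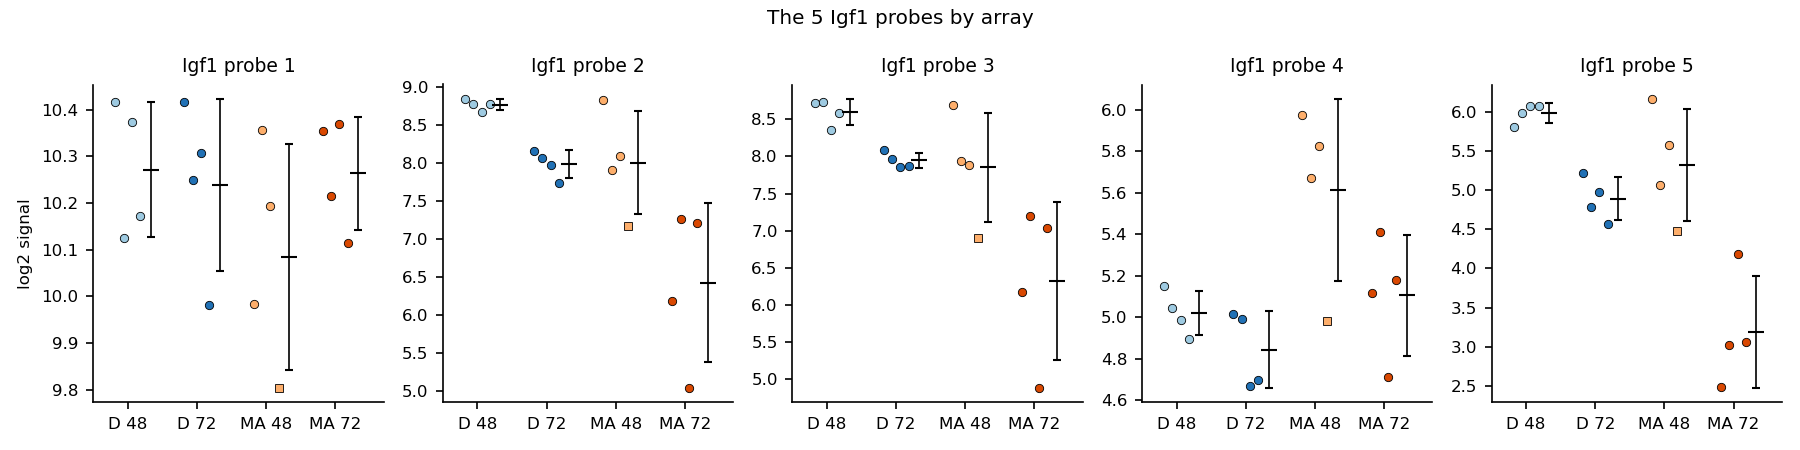
Log2 signal of the 5 Igf1 probes on the 16 arrays, for dispersed (D) and myofiber-associated (MA) myoblasts at 48 and 72 hr. Points are arrays, the square is the pooled array, dashes with bars are the mean and SD of 4 arrays, and each vertical axis has its own range. Probe 1 stays between 9.80 and 10.42, while probes 2, 3 and 5 are lower at 72 hr than at 48 hr on every dispersed array.

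Igf2 was close to background and did not pass the threshold in any of the 5 comparisons. In dispersed myoblasts it read 5.26, 5.86, 5.63 and 5.67 at 48 hr and 5.20, 5.38, 4.96 and 4.87 at 72 hr. The myofiber-associated arrays gave 4.64, 5.25, 5.23 and 4.05 at 48 hr, the last on the pooled array and not well above background, and 6.47, 5.21, 6.35 and 5.21 at 72 hr. The time points overlapped in both cultures, and the high 72-hr values were those of replicates 1 and 3. The log2 change was -0.50 (SE 0.15, adjusted p = 0.0422) in dispersed and 1.02 (SE 0.39, adjusted p = 0.0858) in myofiber-associated myoblasts, the latter 0.42 (adjusted p = 0.128) under normexp background correction. The difference between these changes was -1.52 (SE 0.44, adjusted p = 0.0353), but -0.61 (adjusted p = 0.0539) with normexp and -1.24 (adjusted p = 0.00867) with the authors' deposited log2 ratios. Those are ratios to the mean of the 48-hr arrays, so the last p-value leaves out the spread of the 48-hr arrays.

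Igf1r, the signaling receptor of both ligands, rose in dispersed myoblasts and was lower in myofiber-associated than in dispersed myoblasts. Dispersed arrays read 11.25, 11.40, 11.29 and 11.36 at 48 hr and 11.59, 11.61, 11.67 and 11.57 at 72 hr. The time points did not overlap, and the change was 1.22-fold (log2 change 0.29, SE 0.05, adjusted p = 0.00354). It passed in 4 of 8 fits with 1 array left out and missed in the others, at an adjusted p of 0.0136, 0.0109, 0.0123 and 0.0131 without 48-hr replicate 3 and 72-hr replicates 5, 6 and 7. It also missed, at an adjusted p of 0.0588, in one fit of all 16 arrays.

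Myofiber-associated arrays read 10.60, 10.58, 10.61 and 10.61 for Igf1r at 48 hr and 11.37, 10.98, 11.20 and 10.85 at 72 hr. They did not overlap, yet the change of 0.50 (SE 0.12, adjusted p = 0.0239) missed the threshold. The changes in the cultures differed by -0.21 (95% interval -0.49 to 0.06, adjusted p = 0.242).

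Igf2r, the receptor that clears IGF2, did not pass the threshold in any comparison. Its arrays ranged from 11.58 to 11.85 in dispersed and from 11.16 to 11.80 in myofiber-associated myoblasts, the highest of the latter being the pooled array. The log2 change was 0.05 (95% interval -0.09 to 0.19, adjusted p = 0.594) in dispersed and -0.10 (95% interval -0.46 to 0.26, adjusted p = 0.664) in myofiber-associated myoblasts.

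Igfbp2, which binds both ligands, changed the most. Probe 1 read 7.95, 7.90, 7.94 and 7.86 at 48 hr and 9.98, 10.22, 10.21 and 10.46 at 72 hr in dispersed myoblasts. In myofiber-associated myoblasts it read 5.54, 6.34, 5.95 and 7.56 at 48 hr, the last on the pooled array, and 10.48, 9.88, 11.48 and 9.64 at 72 hr. In both cultures every 72-hr array was above every 48-hr array, with an exact permutation p of 0.0286, the smallest that 4 against 4 arrays can give.

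The rise of Igfbp2 was 4.94-fold in dispersed myoblasts (log2 change 2.30, SE 0.09, adjusted p = 1.23e-05) and 16.3-fold in myofiber-associated myoblasts (log2 change 4.02, SE 0.51, adjusted p = 0.00272), the latter a log2 change of 2.93 (adjusted p = 0.00528) with normexp. It had rank 21 from the top of 20317 genes in each culture. Probe 2 gave 2.24 (SE 0.09, adjusted p = 1.27e-05 over all probes) and 3.55 (SE 0.46, adjusted p = 0.00278). In dispersed myoblasts the gene passed in 8 of 8 fits with 1 array left out. It passed in 5 of 8 such fits in myofiber-associated myoblasts, and the adjusted p was 0.0111, 0.0102 and 0.0116 without 48-hr replicates 7 and 8 and 72-hr replicate 1.

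The changes of Igfbp2 in the cultures differed by -1.72 (SE 0.56, adjusted p = 0.0517), which missed the threshold. Without the pooled array, the highest of its group, the difference was -2.12 (adjusted p = 0.0057), whereas with normexp it was -0.98 (adjusted p = 0.16). Probe 2 gave a difference of -1.31 (SE 0.50, limma, adjusted p = 0.0884 over all probes). Without the pooled array probe 2 gave -1.64 (SE 0.42, adjusted p = 0.0132), which missed the threshold too. At 72 hr the highest myofiber-associated arrays were again replicates 1 and 3. The summed signal of the adult fiber genes on the myofiber-associated arrays was 20.68, 20.34, 20.62 and 20.09 at 48 hr. At 72 hr it was 18.18, 19.60, 17.69 and 19.996. Within each time point its order was the reverse of that of Igfbp2 probe 1, and its part in the result was not tested.

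Igfbp3, the main carrier of IGFs in serum, fell in dispersed myoblasts. Probe 1 read 11.32, 11.24, 11.22 and 11.42 at 48 hr and 10.47, 10.70, 10.69 and 10.66 at 72 hr. The time points were apart, and the log2 change was -0.67 (SE 0.07, adjusted p = 0.000404), with 8 of 8 fits past the threshold when 1 array was left out. In one fit of all 16 arrays, which share one estimate of the spread, the call was lost (adjusted p = 0.165). Probe 2, whose accession is an Ensembl transcript, fell by 0.81 (SE 0.10, adjusted p = 0.000896 over all probes).

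In myofiber-associated myoblasts Igfbp3 probe 1 read 10.14, 10.67, 9.84 and 11.23 at 48 hr and 10.84, 9.63, 10.40 and 9.63 at 72 hr. The time points overlapped, with a change of -0.35 (SE 0.37, adjusted p = 0.499), and the changes in the cultures differed by -0.33 (95% interval -1.19 to 0.54, adjusted p = 0.586). Probe 2 overlapped as well, with a change of -0.94 (SE 0.38, limma, adjusted p = 0.101 over all probes). Its changes in the cultures differed by 0.13 (95% interval -0.77 to 1.03, adjusted p = 0.851).

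Igfbp4, an inhibitory binding protein that the protease PAPP-A cleaves, was the one member whose change differed between the cultures. It read 7.70, 7.97, 7.50 and 7.77 at 48 hr and 7.60, 7.61, 7.27 and 7.16 at 72 hr in dispersed myoblasts. With the fiber present it read 7.50, 7.48, 7.19 and 7.60 at 48 hr and 8.35, 7.85, 8.23 and 7.93 at 72 hr. The time points overlapped in the first culture and were apart in the second.

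The log2 change of Igfbp4 was -0.33 (SE 0.13, adjusted p = 0.11) in dispersed and 0.65 (SE 0.14, adjusted p = 0.0185) in myofiber-associated myoblasts, so neither passed alone. The difference between them was -0.97 (SE 0.20, adjusted p = 0.00852). It passed in 4 of 16 fits with 1 array left out (adjusted p up to 0.0214), namely those without dispersed 48-hr replicate 3, the pooled array, and myofiber-associated 72-hr replicates 2 and 4. It also missed the threshold with normexp (-0.74, adjusted p = 0.0113), with scaling to the 75th percentile (-0.97, adjusted p = 0.0109), without a filter on low signal (adjusted p = 0.0171) and with a filter on signal well above background (adjusted p = 0.0101).

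Igfbp5, which differentiating myoblasts are known to make, was the member most above the dispersed level in myofiber-associated myoblasts at 48 hr. It read 11.46, 11.62, 11.67 and 11.92 at 48 hr and 11.99, 12.31, 12.34 and 12.78 at 72 hr in dispersed myoblasts. The time points were apart, with a change of 0.69 (SE 0.17, adjusted p = 0.0185), which missed the threshold but passed with the slide row as a block (adjusted p = 0.00674). In myofiber-associated myoblasts it read 13.50, 13.05, 13.46 and 13.81 at 48 hr and 12.88, 13.03, 13.79 and 13.15 at 72 hr, a change of -0.24 (SE 0.23, adjusted p = 0.443). The changes differed by 0.93 (SE 0.30, adjusted p = 0.048).

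Igfbp6, which prefers IGF2 over IGF1, read 11.44, 11.35, 11.17 and 10.82 at 48 hr and 12.04, 12.14, 11.80 and 11.43 at 72 hr in dispersed myoblasts. In myofiber-associated myoblasts it read 10.17, 10.16, 10.39 and 10.89 at 48 hr and 11.16, 11.45, 10.91 and 11.46 at 72 hr. The time points overlapped narrowly in the first culture and were just apart in the second. The log2 changes of 0.66 (SE 0.18, adjusted p = 0.0315) and 0.84 (SE 0.20, adjusted p = 0.0218) missed the threshold, the first passed with the slide row as a block (adjusted p = 0.00401), and the second was 1.004 (adjusted p = 0.00518) without the pooled array.

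Igfbp7, a relative with low affinity for IGFs that is abundant in vessel walls, read 9.67, 10.19, 10.15 and 10.36 at 48 hr and 9.09, 9.71, 9.69 and 9.65 at 72 hr in dispersed myoblasts. On the myofiber-associated arrays it read 8.12, 8.14, 7.93 and 9.07 at 48 hr and 7.05, 7.30, 7.01 and 7.19 at 72 hr. Every myofiber-associated array was below every dispersed array, and the pooled array was the highest of its culture. The changes were -0.56 (SE 0.19, adjusted p = 0.0584) in dispersed and -1.18 (SE 0.23, adjusted p = 0.0129) in myofiber-associated myoblasts, the latter -0.93 (adjusted p = 0.00224) without the pooled array.

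The endothelial genes, as a sum, moved with Igfbp7. Their log2 summed signal was 17.66 to 18.11 and 16.15 to 16.66 in dispersed myoblasts at 48 and 72 hr, and 14.92 to 16.03 and 13.97 to 14.37 in myofiber-associated myoblasts, with the pooled array highest at 16.03. Of these 20 genes 19 were called lower at 72 hr without the fiber and 12 with it, while 19 and 18 were called lower in myofiber-associated than in dispersed myoblasts at 48 and 72 hr. With the fiber 1 of the 20 had a change above 0, and at 72 hr 1 had a difference above 0 between the cultures, neither called. Their defining markers Pecam1 and Cdh5 were well above background on all 4 arrays of each group, at means of 11.23 and 12.94 in dispersed myoblasts at 48 hr and 7.08 and 7.62 in myofiber-associated myoblasts at 72 hr. All 20 were well above background on all 4 arrays of each group, except in myofiber-associated myoblasts at 72 hr, where 19 were. The remaining gene was well above background on 1 of those 4 arrays. The 9 genes of pericytes and smooth muscle were also lower as a sum in myofiber-associated myoblasts, at 12.75 to 13.46 beside 15.28 to 16.46 on the dispersed arrays. Of these 9, 5 and 4 were called lower there at 48 and 72 hr, while 1 and 2 had a difference above 0, none of them called. The 6 Schwann cell genes were lower as a sum too, at 10.33 to 11.02 beside 11.56 to 12.53 on the dispersed arrays, and 4 and 3 of the 5 tested were called lower in myofiber-associated myoblasts at 48 and 72 hr. Of the 13 leukocyte genes tested, 9 and 5 were called lower there at 48 and 72 hr and 1 higher at each time, while the sum over 14 overlapped between the cultures, at 14.02 to 14.88 over all arrays. The sum of 12 fibroblast genes ranged from 15.85 to 17.88, highest on the pooled array, with 4 of the 11 tested called lower at 72 hr and 1 called higher at each time. For comparison, 27% and 15.6% of all genes were called lower with the fiber than without it at 48 and 72 hr. The shares called higher were 16.1% and 11.5%. Over time, 6.32% of all genes were called lower without the fiber and 1.74% with it. The part of these lists in the Igfbp7 result was not tested.

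**Figure D3:**
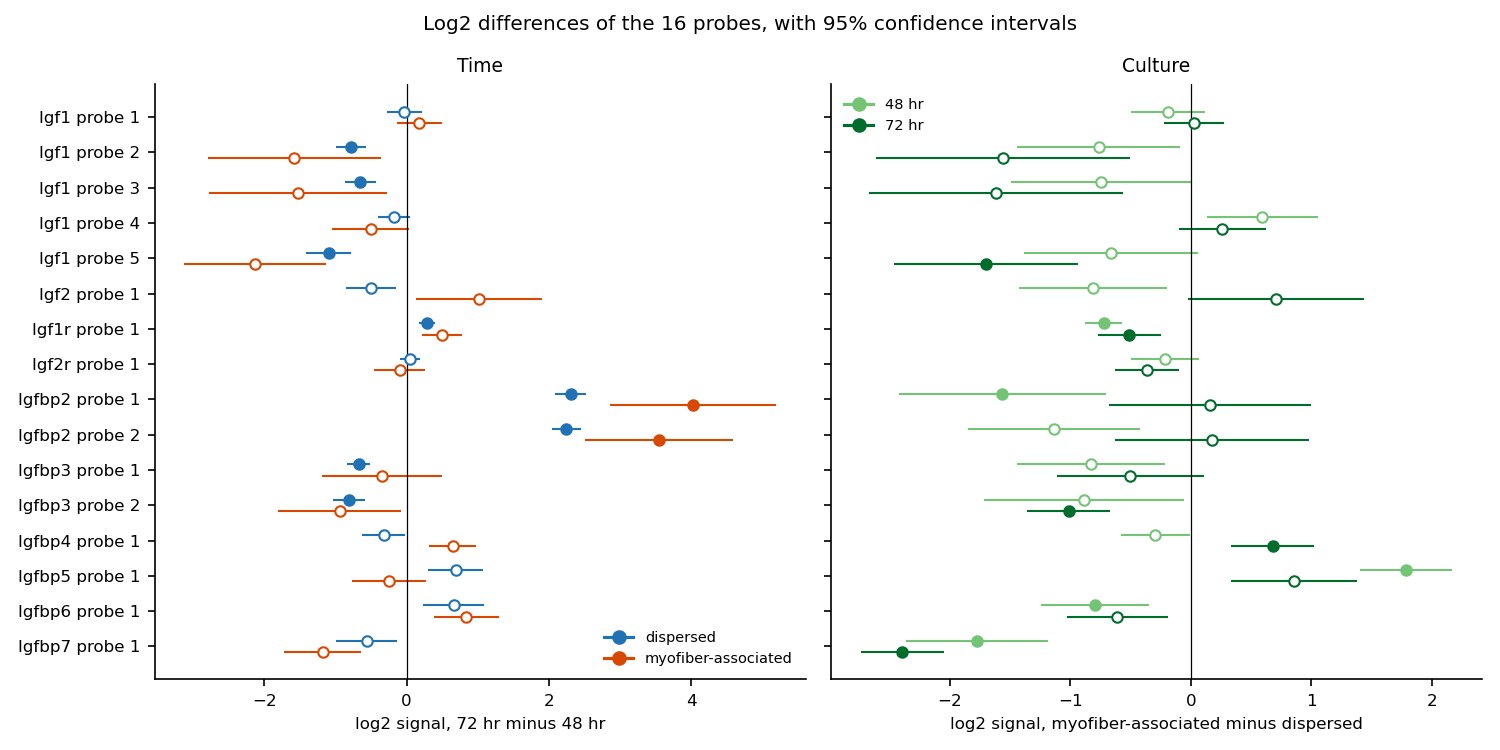
Log2 change from 48 to 72 hr (left, dispersed in blue and myofiber-associated in orange) and log2 difference of myofiber-associated minus dispersed myoblasts (right, at 48 and 72 hr) for the 16 probes. Points are limma estimates from 8 arrays, bars are 95% intervals, and filled points have an adjusted p under 0.01 over all probes. Both Igfbp2 probes are far to the right of 0 in both cultures, and Igfbp7 is left of 0 in both comparisons of the cultures.

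At 48 hr the cultures differed in 5 of the 10 genes. Igfbp5 was higher in myofiber-associated myoblasts, where 16.1% of all genes were called higher, and Igf1r, Igfbp2, Igfbp6 and Igfbp7 were lower, where 27% were. The median log2 difference of the 10 genes (myofiber-associated minus dispersed) was -0.76, beside -0.12 for all genes. Igfbp5 was 3.46-fold higher (log2 difference 1.79, SE 0.17, adjusted p = 6.58e-05) and Igfbp7 3.43-fold lower (-1.78, SE 0.26, adjusted p = 0.000607), both without overlap.

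Igf1r was lower at 48 hr by a log2 difference of -0.72 (SE 0.06, adjusted p = 5.29e-05), again without overlap. Igfbp5, Igf1r and Igfbp7 passed in 8 of 8 fits with 1 array left out. Igfbp2 was lower by -1.56 (SE 0.38, adjusted p = 0.00733) and Igfbp6 by -0.79 (SE 0.20, adjusted p = 0.00814), the latter with overlap. These calls depended on single arrays: Igfbp2 passed in 1 of 8 such fits (adjusted p up to 0.0223), the one without the pooled array, and Igfbp6 in 2 of 8 (up to 0.0258), those without the pooled array and without dispersed replicate 4. The Igfbp2 difference also missed with normexp (-0.79, adjusted p = 0.0169), with scaling to the 75th percentile (-1.48, adjusted p = 0.0119) and without a filter (adjusted p = 0.0185), and its probe 2 gave -1.13 (SE 0.31, adjusted p = 0.0139 over all probes). That of Igfbp6 missed with the slide row as a block (adjusted p = 0.0144) and without a filter (adjusted p = 0.0188). Without the pooled array Igfbp3 passed too, at -1.08 (adjusted p = 0.00117), beside -0.83 (adjusted p = 0.0271) with it.

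Most genes of differentiating myoblasts were also higher in myofiber-associated myoblasts, with 7 of 9 called higher and 1 lower at 48 hr and 6 called higher at 72 hr. Their log2 summed signal was 13.32 to 14.20 and 13.37 to 13.94 in dispersed myoblasts at 48 and 72 hr, and 18.67 to 18.93 and 16.92 to 18.65 in myofiber-associated myoblasts. At 48 hr Myh8, a perinatal myosin, had a mean of 18.57 with the fiber present, close to the sum itself, and of 12.62 in dispersed myoblasts. Myh4, a myosin of the adult fiber list, had means of 18.32 and 12.56 in these groups. Myh3, the embryonic myosin, was the gene called lower and was not well above background on any myofiber-associated 48-hr array. From 48 to 72 hr in dispersed myoblasts 4 of the 9 were called higher and 2, Mef2c and Myh8, lower. The 10 adult fiber genes were called higher in myofiber-associated myoblasts at 48 hr in 10 of 10 cases, with a median log2 difference of 6.14, and in 9 of 10 at 72 hr. For comparison, 16.1% and 11.5% of all genes were called higher with the fiber than without it at 48 and 72 hr. Over time without the fiber, 7.38% of all genes were called higher and 6.32% lower. The part of these lists in the Igfbp5 result was not tested.

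At 72 hr 1 of the 10 genes was called higher in myofiber-associated myoblasts, where 11.5% of all genes were, and 2 were called lower, where 15.6% were. The median difference was -0.17, beside -0.02 for all genes. Igfbp7 was 5.27-fold lower (log2 difference -2.40, SE 0.15, adjusted p = 2.29e-05) and passed in 8 of 8 fits with 1 array left out. Igf1r was lower by -0.51 (SE 0.11, adjusted p = 0.0075) and Igfbp4 higher by 0.68 (SE 0.15, adjusted p = 0.00738), without overlap. Each of these passed in 1 of 8 such fits, Igf1r without myofiber-associated replicate 1 (adjusted p up to 0.0253 otherwise) and Igfbp4 without myofiber-associated replicate 2 (up to 0.0249). Without a filter both missed, at adjusted p of 0.0156 and 0.0162, and Igf1r missed with normexp (adjusted p = 0.0123) and with the slide row as a block (adjusted p = 0.0126).

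The level of Igfbp2, which differed at 48 hr, overlapped between the cultures at 72 hr, with a difference of 0.16 (95% interval -0.69 to 0.998, adjusted p = 0.752). Igfbp5 remained apart at 72 hr, by 0.86 (SE 0.23, adjusted p = 0.0166), short of the threshold, which it passed with the slide row as a block (adjusted p = 0.00723) and in one fit of all 16 arrays (adjusted p = 0.00431). By probe, 1 of the 16 was called higher and 4 lower at each time, where 15.3% and 25.8% of all probes were at 48 hr and 11% and 15% at 72 hr. Igf1 probe 5 was lower at 72 hr by -1.70 (SE 0.33, adjusted p = 0.00446) and Igfbp3 probe 2 by -1.01 (SE 0.15, adjusted p = 0.00131), while probe 1 of each gene was not called. On the myofiber-associated 72-hr arrays these probes were well above background on 1 and 3 of 4, so the size of the first difference in particular is uncertain. Igf1 probes 2 and 3 were also lower at 72 hr, without overlap, by -1.56 and -1.62 (limma, adjusted p = 0.025 and 0.0217), short of the threshold. Igf1 probe 4 went the other way, by 0.26 (adjusted p = 0.206). At 48 hr Igf1 probes 2, 3 and 5 differed by -0.77, -0.75 and -0.66 and probe 4 by 0.59, none of them called.

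The other genes of the pathway were 67 on the array, of which 61 passed the filter. In dispersed myoblasts 8 of the 61 were called higher at 72 hr and 5 lower, where 7.38% and 6.32% of all genes were. Their median log2 change was 0.01. In the other culture, with the fiber present, 2 were called higher and 4 lower (median -0.06), where 3.74% and 1.74% of all genes were. The change differed between the cultures for 3, with 2 differences above 0 and 1 below, where 1.09% and 2.36% of all genes were called. Nothing is read from these counts about the pathway as a whole.

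In dispersed myoblasts H19, the imprinted noncoding RNA beside Igf2, had the largest change, from 12.62 to 12.92 at 48 hr to 14.19 to 14.99 at 72 hr (log2 change 1.79, SE 0.16, adjusted p = 0.000211). Grb14, an adaptor that inhibits the insulin receptor, rose by 1.60 (SE 0.24, adjusted p = 0.00225), and the lipid phosphatase gene Inppl1 rose by 0.77 (SE 0.07, adjusted p = 0.000163). Inpp5d, a related phosphatase known chiefly from blood cells, fell by 1.13 (SE 0.16, adjusted p = 0.0015). Irs1, the adaptor below the receptor, rose by 0.50 (SE 0.07, adjusted p = 0.00226), whereas Irs2 (-0.01, adjusted p = 0.919) and the insulin receptor Insr (0.17, adjusted p = 0.0895) did not pass.

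In myofiber-associated myoblasts Stc1, an inhibitor of the proteases that cleave binding proteins, fell by 2.79 (SE 0.44, adjusted p = 0.00563), and Pappa2, one such protease, fell by 1.45 (SE 0.25, adjusted p = 0.00757). Inpp5d fell by 2.11 (SE 0.25, adjusted p = 0.00224), and Deptor, an inhibitor of mTOR, rose by 1.32 (SE 0.21, adjusted p = 0.00608). H19 (0.50, adjusted p = 0.152), Insr (-0.39, adjusted p = 0.261), Irs1 (-0.32, adjusted p = 0.445) and Irs2 (-0.58, adjusted p = 0.0437) did not pass. Pappa did not pass the filter and was well above background on 2, 1, 2 and 1 of 4 arrays per group.

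The changes in the cultures differed for Htra3, a serine protease (-1.13, SE 0.21, adjusted p = 0.00438), for Inppl1 (0.72, SE 0.15, adjusted p = 0.00923) and for Rheb, the GTPase that activates mTORC1 (0.54, SE 0.09, adjusted p = 0.00299). H19 was higher in myofiber-associated than in dispersed myoblasts at both times, by 2.60 at 48 hr (SE 0.13, adjusted p = 3.06e-06) and 1.31 at 72 hr (SE 0.26, adjusted p = 0.00486). The sums of the genes of differentiating myoblasts and of adult fibers were higher there too, and their part in that result was not tested. Between the cultures, 12 of the 61 genes were called higher and 11 lower at 48 hr, where 16.1% and 27% of all genes were. At 72 hr the counts were 7 and 11, where 11.5% and 15.6% of all genes were called.

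**Figure D4:**
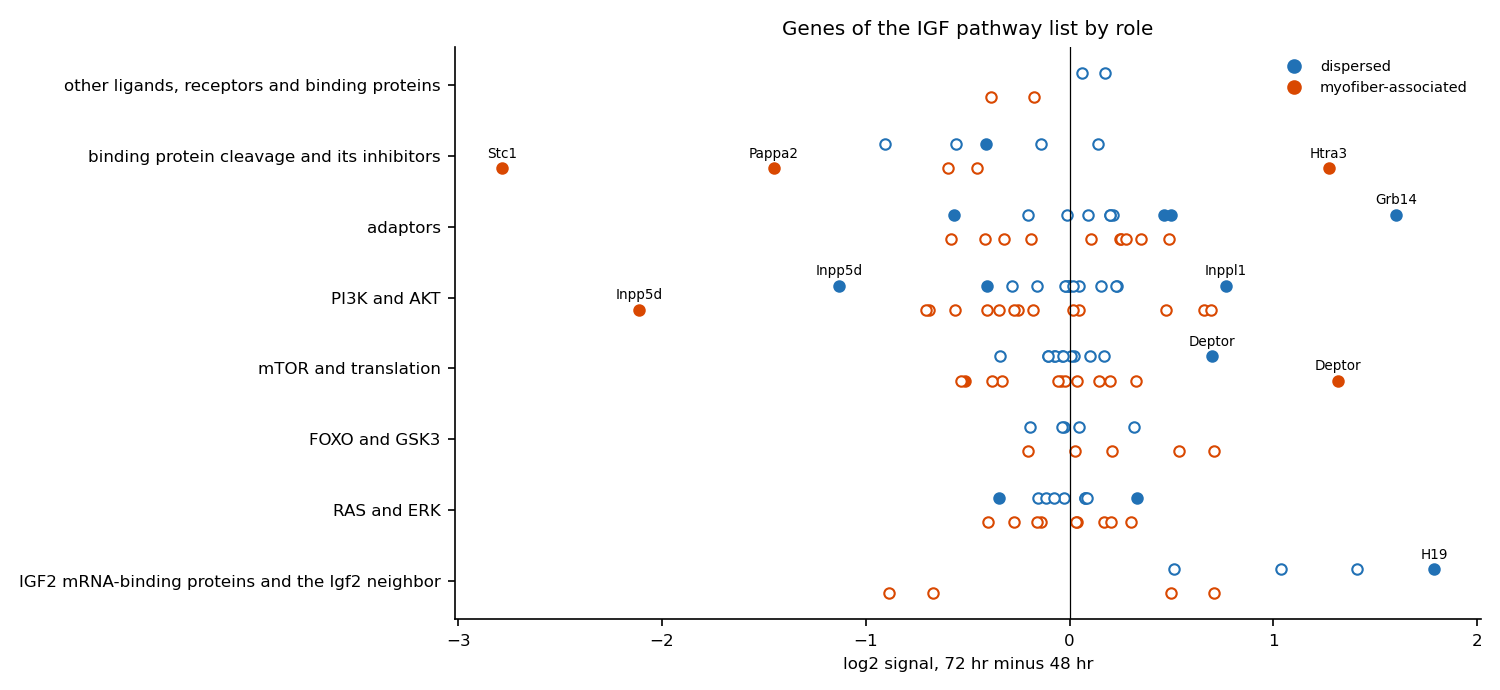
Log2 change from 48 to 72 hr of the 61 tested pathway genes that are not members, grouped by role, in dispersed and myofiber-associated myoblasts. Each point is 1 gene, and filled points have an adjusted p under 0.01 over all genes. H19 and Grb14 are the highest filled points in dispersed myoblasts, and Stc1 is the lowest in myofiber-associated myoblasts.

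The genes most like each member were found by Pearson's r over the 16 arrays after the mean of each culture was subtracted, for the 9 members well above background on all 16. These values describe arrays that share time points, slides and preparation, so they carry no test. Igfbp2 was most like Mgst2 (r = 0.992), Rfx8 (0.990) and Whrn (0.986), and Igfbp7 most like Entpd2 (0.971) and the basement membrane collagens Col4a1 (0.964) and Col4a2 (0.959). Igfbp6 followed Lce1i (0.974), and Igf1r followed Snx14 (0.968), Wls (0.966) and Frat1 (0.966). The likeness of the remaining members was lower, with highest values of 0.940 for Igf1 probe 1 (Il27), 0.918 for Igfbp4 (Magi3), 0.902 for Igfbp3 (Sgk1), 0.895 for Igf2r (Pcca) and 0.836 for Igfbp5 (Smoc2).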

How the data were processed

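RNA of RIN 7.5 or more was labeled with Cy3, and the deposited scanner files give each spot's processed intensity, from which the scanning software had already removed background. Each array's intensity was taken as log2, with spots that the software called outliers left out, fitted by loess (span 0.3, 4 iterations) to a reference averaged from the 48-hr arrays of the same culture, and quantile normalized over 16 arrays. Identical probes were averaged, the brightest probe stood for a gene, and a median log2 signal of at least 5 was required. The authors also deposited log2 ratios of the 72-hr arrays to the mean of the 48-hr arrays (59305 rows, 8 columns), which served as an alternative. The files hold 2 versions of the gene names, equal for 96.9% of spots; members were the same in both.

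Tests used limma 3.58.1 in R 4.3.3, on 8 arrays per comparison and on 16 for the difference of changes, as two-sided tests; p-values were adjusted by Benjamini-Hochberg across every gene (or every probe) tested, with a threshold of 0.01. The study's samr test was not run here. The fit was tested on simulated data. Single values had the exact permutation test of 4 against 4 arrays (70 regroupings). The number of arrays limits the precision. Preparations were from separate mice, as far as the labels say, so p-values measure the spread between preparations.

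The members and all gene lists were chosen with earlier results of these data known. Named were the 10 members with all probes, up to the 4 largest changes past the threshold among the pathway genes in each culture and for the difference, Insr, Irs1, Irs2, Pappa and H19, and the 3 genes with the highest r to a member, passing over names without a symbol in use. Markers of other cells were summed as lists, and Pecam1 and Cdh5 were named as defining markers. Myh8, Myh3, Mef2c and Myh4 were named from their lists outside these rules. Alternatives covered background correction, scaling, filters, the probe used, the slide row, the samples fitted, the threshold and arrays left out; probes without the pooled array were added after seeing the data. Some probe sequences are not reported here.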

Additional observations from a re-analysis of the deposited data

Results flagged for a closer look

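Igfbp7 on dispersed 72-hr replicate 5 was 9.09, apart from the 9.65 to 9.71 of the other 3 arrays of its group. Its gap was 0.912 of the group's range, past Dixon's 95% critical value for 4 arrays. Of 64 groups of member values tested 1 passed, and chance alone passes about 1 in 20. Without this array the change of Igfbp7 in dispersed myoblasts was -0.41 (limma, adjusted p = 0.104), and the difference between the cultures at 72 hr was -2.55 (adjusted p = 1.67e-05). Igfbp4 changed differently in the cultures, by -0.97 (adjusted p = 0.00852).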

How the results depend on the processing

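No paired analysis was possible because the groups compared share no replicate numbers within a culture, and between cultures at one time they share none. The number of members called (3 in dispersed and 1 in myofiber-associated myoblasts over time, 1 for the difference, 5 and 3 between the cultures at 48 and 72 hr) and of pathway genes called (13, 6 and 3) moved as follows. For the difference, 0 members were called with normexp, the 75th percentile, no filter or the filter on signal well above background. Without a filter 3 and 1 were called between the cultures and 1 pathway gene in myofiber-associated myoblasts; that pathway count was 3 with the mean of all probes or the slide row as a block, and the block gave 5 members in dispersed myoblasts. One fit of 16 arrays gave 1 and 5 members and 5 and 18 pathway genes. A threshold of 0.05 gave 6, 5 and 3 members, 6 between the cultures at 72 hr, and 22, 15 and 17 pathway genes. The authors' ratios gave 4 and 2 members and 15 and 23 pathway genes, over time with the fiber present and for the difference. Their p-values leave out the spread of the 48-hr arrays, so their counts, here and over all genes, are not like for like. With the mean of all probes Igf1 turned to -0.92 between the cultures at 72 hr (adjusted p = 0.00491, 0.03 with the brightest probe), by construction, since probes 2, 3 and 5 were lower there. With 1 array left out the members called were 2 to 3, 0 to 3, 0 to 2, 3 to 6 and 1 to 2, and the pathway genes 8 to 13, 0 to 7 and 1 to 9; the highest for the difference, for the members in myofiber-associated myoblasts and for the cultures at 48 hr came without the pooled array. Over single members, 471 of 520 values under other alternatives and 428 of 480 with 1 array left out counted as unchanged. Called values among them stayed called in the same direction. The others stayed uncalled and within 1 pooled SD of the main value, some with the other sign. Over all genes, 2784, 1113 and 701 were called over time and for the difference and 5513 between the cultures at 72 hr, beside 999 and 5780 (first 2) in one fit of 16 arrays, 468 and 409 (last 2 of the 3) without a filter, 571 in myofiber-associated myoblasts with the block, 5461, 4585, 3129 and 9304 at 0.05, and 3787 and 3823 with the authors' ratios. With 1 array left out these counts spanned 1679 to 2507, 232 (without 48-hr replicate 7) to 1991 (without the pooled array), 295 (without dispersed 72-hr replicate 6) to 2368 (without the pooled array) and, at 72 hr, 3315 to 5627. Between the cultures at 48 hr 8773 of all genes were called. That count spanned 6374 (without dispersed 48-hr replicate 2) to 11144 (without the pooled array) with 1 array left out. Apart from the reversal, the cause of these moves was not tested. Igf1 probe 5, Igfbp3 probe 2 and Igf2, near background and not well above it on every array, have the least depth of signal.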
